A study of Mus musculus with 8 samples.

Results

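The genes described here encode non-collagen proteins of the extracellular matrix and the lysyl oxidases that cross-link it. The set was defined by a list of 10 mouse gene identifiers and not by a threshold on any measured value. Of these, 9 had a row among the 17592 gene rows of the deposited table. They were the adhesive glycoprotein Fn1 (ENSMUSG00000026193), the matricellular proteins Sparc (ENSMUSG00000018593), Postn (ENSMUSG00000027750) and Tnc (ENSMUSG00000028364), the cross-linking enzymes Lox (ENSMUSG00000024529) and Loxl1 (ENSMUSG00000032334), the elastic fibre proteins Eln (ENSMUSG00000029675) and Fbn1 (ENSMUSG00000027204), and the proteoglycan Bgn (ENSMUSG00000031375). Dcn (ENSMUSG00000019929), the decorin gene, was not analysed here because its identifier had no row. The symbols are those of the list that defines the set, since the table holds identifiers alone.

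The cells were murine mesenchymal stem cells, multipotent stromal cells of bone marrow, from the strain given as C57B6/J. They had been expanded in standard culture and were used at passage 10. In the treated group, 4 samples were exposed for 24 h to ropivacaine, an amide local anaesthetic acting on voltage-gated sodium channels, at 100 uM in the sample annotation (the treatment protocol gives the same figure in mM). The controls were 4 untreated samples of the same cells, also collected at 24 h. The labels do not state the culture or animal behind each sample, and the p-values below therefore reflect only how these 8 samples varied, possibly for technical reasons.

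Stromal cells build a matrix in which collagen fibrils, elastic fibres and adhesive glycoproteins are held together. Fibrillin microfibrils form the scaffold on which elastin is deposited, and lysyl oxidases then oxidise lysines of elastin and collagen so that the chains can cross-link. Matricellular proteins such as SPARC, periostin and tenascin-C bind to this matrix and modulate how cells attach to it and how it is assembled, and biglycan coats collagen fibrils. In bone marrow the stromal and osteogenic lineages are among the sources of these proteins, and such cells secrete many of them in culture.

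After 24 h of ropivacaine, 0 of the 9 matrix genes differed from untreated cells at a Benjamini-Hochberg adjusted p below 0.05 (limma, adjusted over all 17592 genes), where 0.404% of all genes did, 0.119% on the lower side. The differences were small. The log2 fold change, ropivacaine minus control, was negative for 8 of the 9 genes and ran between -0.17 for Fbn1 and 0.01 for Postn. Its median was -0.054 over the 9 genes and -0.0048 over all genes, of which 52.2% were negative. Of the 9, 2 had an unadjusted limma p below 0.05, Fbn1 and Tnc, both lower with ropivacaine, while 9.74% of all genes passed that threshold and 4.41% passed it on the lower side. These were also the 2 genes whose ropivacaine arrays all lay below every control array, a separation that 3.15% of all genes showed in this direction and 6.70% in either. All members but Eln were among the brightest 25% of genes. Of those 4399 genes, 503 passed the unadjusted threshold and 458 had groups without overlap, each in either direction. Over all 17592 genes these counts were 1714 and 1178, so both shares were higher among the brightest 25%. With cultured cells measured in bulk, less RNA per cell and fewer cells expressing a gene cannot be told apart.

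**Figure D1:**
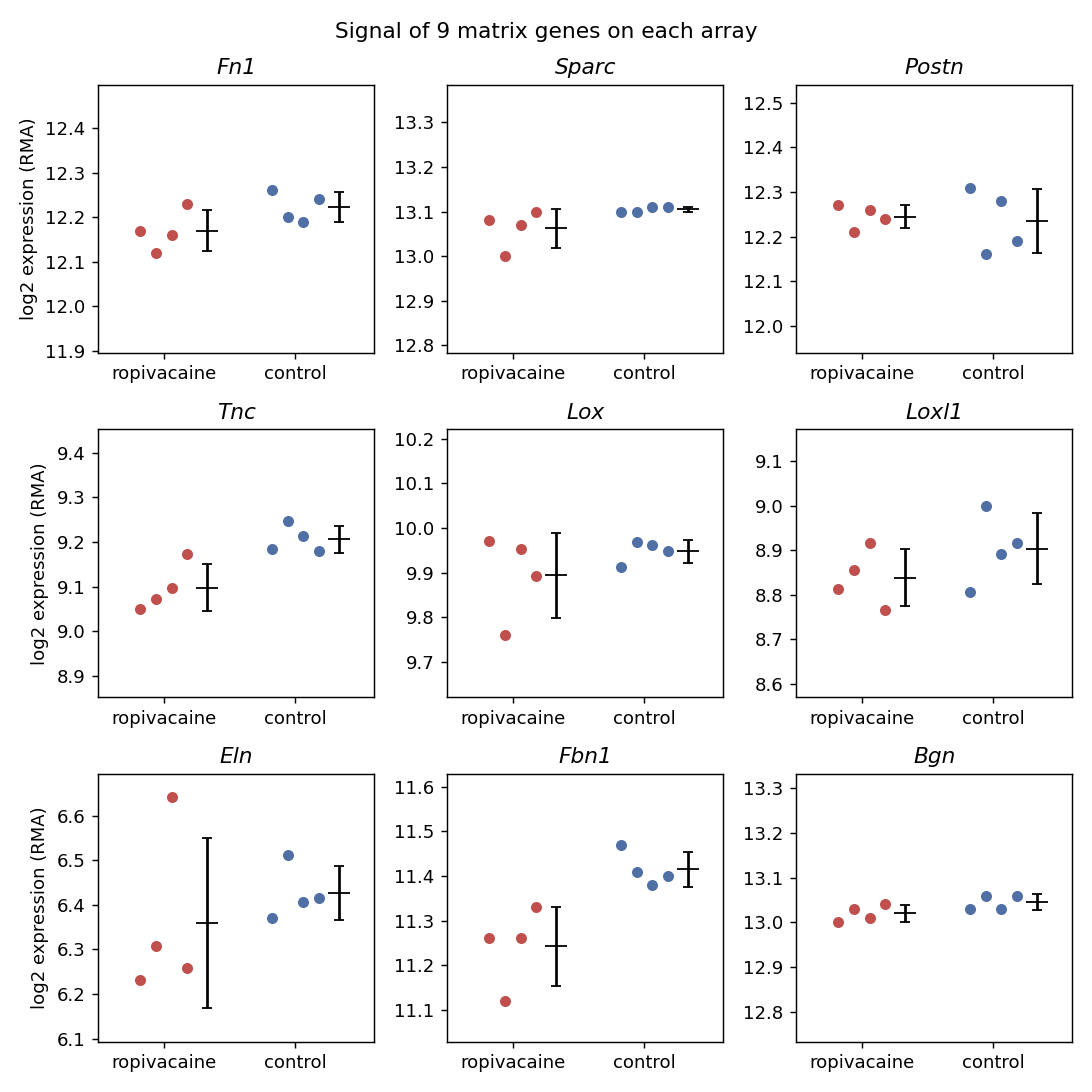
Log2 expression of the 9 matrix genes on each array, with ropivacaine arrays (red) and control arrays (blue) as points in replicate order and the mean ± SD (n = 4) as a black bar beside them. Every panel spans the same height on the log2 scale. The groups separate without overlap for Tnc and Fbn1, and 1 ropivacaine array stands above the others for Eln.

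Fbn1, which encodes fibrillin-1, the main structural protein of microfibrils, had the largest difference of the 9 genes. Its log2 expression was 11.26, 11.12, 11.26 and 11.33 on ropivacaine arrays 1 to 4. On control arrays 1 to 4 it was 11.47, 11.41, 11.38 and 11.40. All 4 ropivacaine values lay below the lowest control value, with a gap of 0.05 between the groups. The means were 11.24 ± 0.09 with ropivacaine and 11.42 ± 0.04 in controls (SD, n = 4 each). They differed by a log2 fold change of -0.17 (SE 0.05), with an unadjusted limma p of 0.00891 and an adjusted p of 0.292. On the linear scale this is a change of -11.3%, with a 95% interval, not adjusted for the number of genes, of -18.2% to -3.79%. The gene ranked 536 of 17592 by p.

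Eln encodes elastin, the protein that gives elastic fibres their recoil. It was the dimmest of the 9 rows and lay below the array median of 6.91, and whether it exceeded background is unknown. The log2 values on ropivacaine arrays 1 to 4 were 6.23, 6.31, 6.64 and 6.26, and those on control arrays 1 to 4 were 6.37, 6.51, 6.41 and 6.42. Ropivacaine replicates 1, 2 and 4 were below every control array, but replicate 3 was above all of them. The log2 fold change of -0.07 (SE 0.09) had a limma adjusted p of 0.877. Without ropivacaine replicate 3 it was -0.16, with an unadjusted limma p of 0.0116 and an adjusted p of 0.302. Without ropivacaine replicate 1 it was -0.02, with an unadjusted limma p of 0.812. These were the 2 ends of the range with 1 array left out. Dixon's test for an outlying value was applied to each of the 9 genes in each group. It marked 0 of 18 sets and so did not mark ropivacaine replicate 3. In the fit with array weights, that array had the lowest weight of the ropivacaine arrays, 0.71. The weights were 1.16, 0.92 and 1.07 for ropivacaine replicates 1, 2 and 4, and 0.58 for control replicate 2. Without ropivacaine replicate 3 and control replicate 2, the log2 fold change of Eln was -0.13. Its unadjusted limma p was then 0.0205 and its adjusted p 0.414. Why ropivacaine replicate 3 differed was not tested. Both elastic fibre genes, like all other members but Postn, had lower means with ropivacaine, and neither passed the threshold.

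Lox encodes the lysyl oxidase that acts on both collagen and elastin. Its log2 expression was 9.97, 9.76, 9.95 and 9.89 on ropivacaine arrays 1 to 4. Control arrays 1 to 4 gave 9.91, 9.97, 9.96 and 9.95. The groups overlapped, and ropivacaine replicate 2 was the lowest of the 8 arrays. The difference of -0.05 in log2 expression (SE 0.05) had a limma adjusted p of 0.810, and without ropivacaine replicate 2 it was -0.01.

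Loxl1 encodes a lysyl oxidase relative that is needed in mice for the upkeep of elastic fibres. The ropivacaine arrays gave log2 values of 8.81, 8.86, 8.92 and 8.77, and the control arrays gave 8.81, 9.00, 8.89 and 8.92. Control replicate 1 was as low as ropivacaine replicate 1, and the groups overlapped over most of their range. Their log2 fold change was -0.07 (SE 0.05, limma adjusted p = 0.767). It was -0.03 without control replicate 2 and -0.10 without control replicate 1. The 95% intervals of the linear change were -11.2% to 4.58% for Lox and -12.1% to 3.96% for Loxl1, so a modest change in either direction lies inside both.

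Tnc encodes tenascin-C, a large matricellular glycoprotein that is deposited during development and tissue repair and weakens cell adhesion to fibronectin. Its log2 expression was 9.05, 9.07, 9.10 and 9.17 with ropivacaine. In controls it was 9.19, 9.25, 9.21 and 9.18. All 4 ropivacaine values lay below the 4 control values, although ropivacaine replicate 4 came within 0.0080 of the lowest control. The means were 9.10 ± 0.05 with ropivacaine and 9.21 ± 0.03 in controls (SD, n = 4 each). This gave a log2 fold change of -0.11 (SE 0.04), with an unadjusted limma p of 0.0267 and an adjusted p of 0.428. The linear change was -7.24%, with a 95% interval, not adjusted for the number of genes, of -13.0% to -1.10%.

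Sparc encodes a collagen-binding matricellular protein also called osteonectin. Its log2 values were 13.08, 13.00, 13.07 and 13.10 with ropivacaine and 13.10, 13.10, 13.11 and 13.11 in controls. The controls were nearly identical, at a resolution of 0.01 in the table, and the groups touched at 13.10. The log2 fold change was -0.04 (SE 0.04, limma adjusted p = 0.781), and -0.02 without ropivacaine replicate 2, the lowest array.

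Postn encodes periostin, which binds collagen and supports its cross-linking. It was the 1 gene of the 9 with a positive difference. Its log2 values were 12.27, 12.21, 12.26 and 12.24 with ropivacaine and 12.31, 12.16, 12.28 and 12.19 in controls. The ropivacaine arrays all lay within the range of the control arrays. Its log2 fold change was 0.01 (SE 0.04, limma adjusted p = 0.969), and the sign turned when control replicate 2 (-0.015) or control replicate 4 (-0.0050) was left out.

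Fn1 encodes fibronectin, the glycoprotein through which many cells attach to matrix by integrins. Its log2 values were 12.17, 12.12, 12.16 and 12.23 with ropivacaine and 12.26, 12.20, 12.19 and 12.24 in controls. Ropivacaine replicate 4 lay among the controls and the other 3 ropivacaine arrays below them. Fn1 had a log2 fold change of -0.05 (SE 0.04, limma adjusted p = 0.739), and the linear change had a 95% interval of -9.38% to 2.60%.

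Bgn encodes biglycan, a small leucine-rich proteoglycan of bone and other connective tissue. Its log2 values were 13.00, 13.03, 13.01 and 13.04 with ropivacaine and 13.03, 13.06, 13.03 and 13.06 in controls. All 8 values lay between 13.00 and 13.06, and the groups overlapped. For Bgn the log2 fold change was -0.03 (SE 0.03, limma adjusted p = 0.875), with a linear change of -1.72% and the narrowest 95% interval of the 9 genes, -6.73% to 3.56%. Sparc and Bgn lay 0.81 and 0.86 below the highest value on the arrays, 13.89, and whether the signal still follows RNA in proportion there was not tested.

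**Figure D2:**
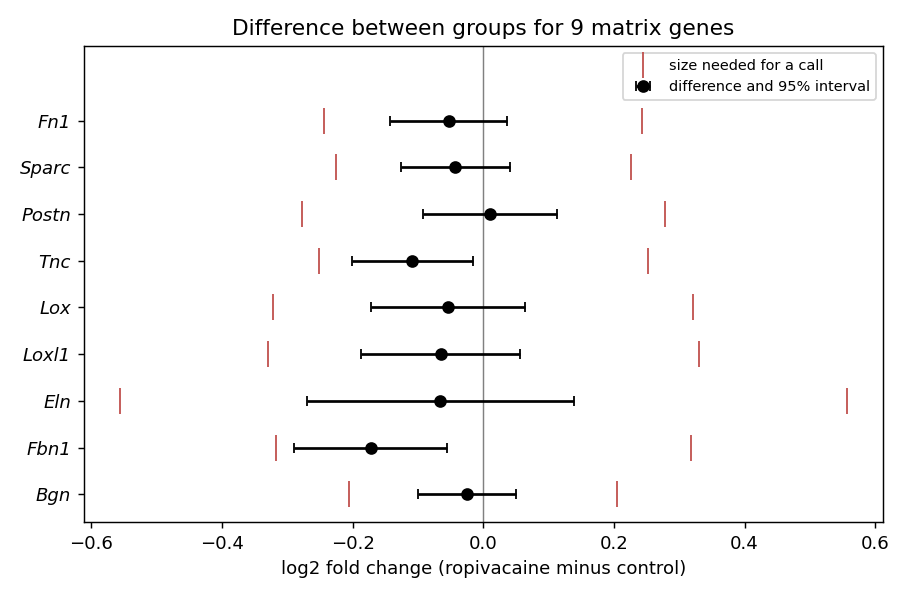
Log2 fold change (ropivacaine minus control) of each matrix gene, with its 95% interval from limma, not adjusted for the number of genes, as a black bar. Red ticks mark the size at which a gene with that standard error would have been called, between 0.21 for Bgn and 0.56 for Eln. All 9 points lie inside their ticks, and the intervals of Tnc and Fbn1 lie below 0.

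The genes called among all rows had unadjusted p-values up to 1.98e-04, and at that p a difference of 0.32 on the log2 scale would have been needed for Fbn1, against the -0.17 measured. For Tnc the size needed was 0.25, for Fn1 0.24, for Sparc 0.23, for Postn 0.28, for Lox 0.32 and for Loxl1 0.33. Bgn needed the least, 0.21, and Eln the most, 0.56. The median standard error was 0.045 over the 9 genes and 0.062 over all genes. The median size of the difference, without its sign, was 0.054 over the 9 genes and 0.055 over all genes. Over the brightest 25% of genes, where all members but Eln lay, the median standard error was 0.048 and the median size 0.042. The sizes needed for a call hold for the standard errors and the p-value limit of this fit. The absence of a call does not show that the levels were equal.

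**Figure D3:**
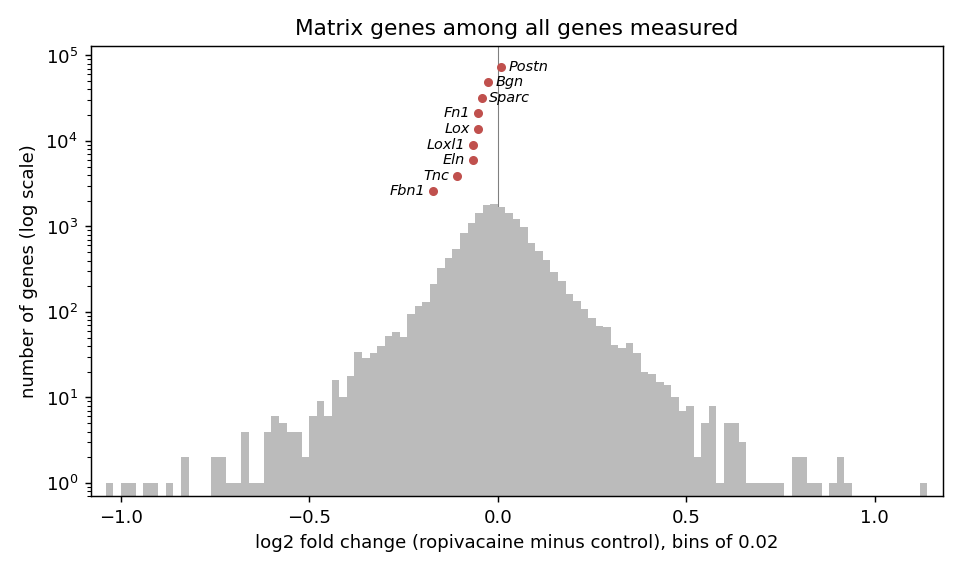
Number of genes (log scale) by log2 fold change, ropivacaine minus control, in bins of 0.02 for all 17592 genes (grey). Red points mark the 9 matrix genes at their fold change, with heights chosen only to keep the names apart. They run between -0.17 for Fbn1, with 4.66% of all genes at or below its fold change, and 0.01 for Postn, with 57.5% at or below.

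The lower means were not spread evenly over the ropivacaine arrays. On ropivacaine replicate 2, 0 of the 9 genes lay above their own mean over the 8 arrays, and on replicate 1, 2 did. The counts were 4 on ropivacaine replicate 3 and 5 on ropivacaine replicate 4. On the control arrays the counts were 5, 8, 7 and 8 for replicates 1 to 4. Averaged over the 9 genes, the deviation from the 8-array mean was -0.04, -0.08, 0.02 and -0.02 on ropivacaine arrays 1 to 4, against 0.03, 0.05, 0.03 and 0.03 on control arrays 1 to 4. The positive value on ropivacaine replicate 3 rested on Eln, 0.25 above its mean there: without Eln the average over the other 8 genes was -0.01 on that array, and 5 of the 9 genes lay below their own mean. Over all genes, the share above their own mean was 48.5% on ropivacaine replicate 2 and 51.4% on control replicate 2. Over the brightest 25% of genes it was 48.2%, 48.3%, 48.8% and 49.2% on ropivacaine arrays 1 to 4. On control arrays 1 to 4 it was 52.5%, 51.4%, 50.7% and 54.4%. Medians over all genes deviated by less than 0.01 on every array. RMA gives the arrays a common distribution, which tends to keep such medians small. The part that single arrays play in the lower means was not tested beyond leaving each out.

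**Figure D4:**
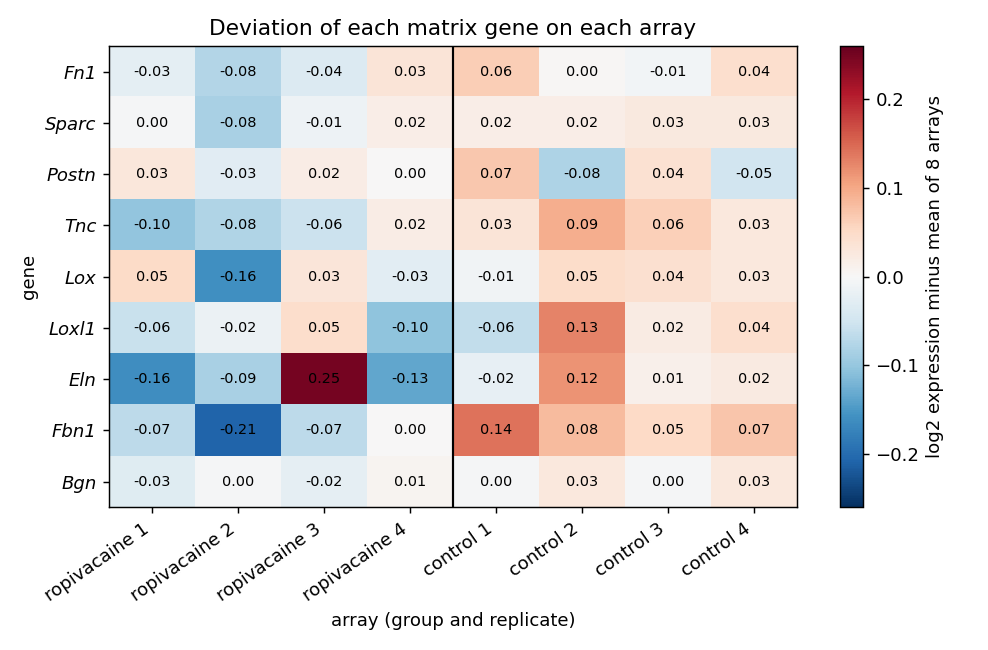
Deviation of each matrix gene (rows) on each array (columns, ropivacaine left of the black line and control right of it) from its mean over the 8 arrays, on the log2 scale. Ropivacaine replicate 2 is blue or near 0 throughout, with -0.21 for Fbn1 and -0.16 for Lox, while Eln reaches 0.25 on ropivacaine replicate 3.

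Leaving out each array in turn kept the difference negative in all 8 fits for the 8 genes other than Postn. For Fbn1 it ranged between -0.20, without ropivacaine replicate 4, and -0.13, without ropivacaine replicate 2, with unadjusted limma p-values of 0.00514 to 0.0262. For Tnc it ranged between -0.13 and -0.09, with unadjusted limma p-values of 0.0114 to 0.0728. For Eln the range was -0.16 to -0.02, the widest of the 9. In these fits 0 of the 9 genes was called, and the lowest limma adjusted p was 0.287, for Fbn1. The 8 negative genes share the same 8 arrays, so their common sign is not 8 separate observations.

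**Figure D5:**
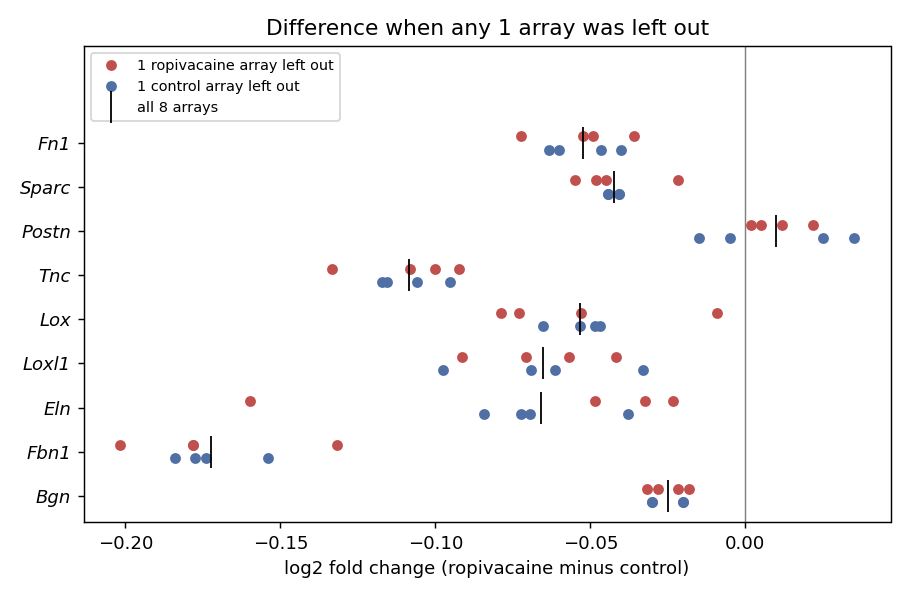
Log2 fold change (ropivacaine minus control) of each matrix gene with any 1 ropivacaine array (red) or any 1 control array (blue) left out, and with all 8 arrays (black line). Postn crosses 0. Eln moves most, to -0.16 without ropivacaine replicate 3.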

How the data were processed

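Each of the 8 samples was hybridised as biotin-labelled cDNA to 1 Affymetrix mouse exon array, per the labels' protocols. The authors deposited log2 expression values, 1 row per Ensembl gene, produced by RMA according to the submitters' processing notes. RMA subtracts background, gives the arrays a common distribution and summarises probes. Its version, probe sets, genome build and filters were not given in the sources used here. All arrays had a median of 6.91, and correlated at 0.990 to 0.995. No scan dates were used, so no batch was tested. The number of arrays limits the precision.

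Groups were taken from sample titles and compared with limma 3.58.1 in R 4.3.3 on all 17592 genes and 8 arrays, two-sided, with no filter or covariate, after testing on simulated data. Calls were made where the Benjamini-Hochberg adjusted p was below 0.05. The exact permutation test used all 70 relabellings. Plots used matplotlib 3.10.9. The members and lists were chosen with earlier results of these data known. Named genes were the members. Lists of other matrix genes and of cell type markers, held as symbols, were not used here, because 0 row identifiers matched the RefSeq gene table (GRCm38.p6), so the stromal identity of the cells was not checked against markers. The alternatives were other scalings, moderation, array weights, filters on dim genes, a block for the replicate number, and arrays left out.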

Additional observations from a re-analysis of the deposited data

How the results depend on the processing

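No matrix gene was called under any of the alternatives run with limma (quantile normalization, median centring, an intensity trend, robust moderation, array weights, 2 filters on dim genes, the replicate block, each array left out, both arrays of lowest weight left out, and an adjusted p below 0.1); 2 of the 9 passed an unadjusted p below 0.05. The arrays already shared a distribution after RMA, so quantile normalization and median centring could change little and are no independent check. Both left the count over all genes at 71. Without the dimmest 50% of genes 8 of the 9 could be tested, since Eln was among those removed. The limma adjusted p of Fbn1 was then 0.129, its lowest. In the exact two-sided permutation test, Fbn1 and Tnc each gave p = 0.029, the smallest this design allows, and the other 7 genes gave 0.086 or more. Any gene whose groups do not overlap gives this smallest p, so it only restates their separation. In either direction, 6.70% of all genes showed it, and 458 of the 4399 genes in the brightest 25%. Postn turned to -0.02 without control replicate 2 and ropivacaine replicate 3, and ranged between -0.015 and 0.035 with 1 array left out; the cause was not tested. The count over all genes, 71, was 135 with an intensity trend, 114 and 179 without the dimmest 25% and 50% of genes, where fewer genes were tested, 3 with the replicate block, 15 to 31 with 1 array left out and 7 without both arrays of lowest weight, where fewer arrays were used. Same-numbered arrays deviated together with correlations of 0.138, 0.0090, 0.056 and 0.070, which does not show that the numbers pair them; with the replicate block the unadjusted limma p was 0.018 for Fbn1 and 0.059 for Tnc. The planned counts for other matrix genes were not run, because the rows carry no symbols. Signal over background is unknown.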
